A study of Homo sapiens with 4 samples.

Results

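The genes described are 10 components of the Notch pathway, chosen by symbol from the 58174 genes of a table of transcript levels: the receptors NOTCH1, NOTCH2 and NOTCH3, the ligands JAG1 and JAG2, the DNA-binding factor RBPJ, and the target genes HES1, HES4, HEY1 and NRARP. Levels came from cultured human liver cancer cells of the lines LM3, labelled hepatocellular carcinoma, and RBE, labelled intrahepatic cholangiocarcinoma. Cells of each line had been lipofected 48 h earlier with si-FENDRR, a small interfering RNA aimed at the long noncoding RNA FENDRR, or with the negative control si-NC, and the series asks what FENDRR does to expression in primary liver cancer. There were 4 libraries in all, namely LM3 with si-FENDRR, LM3 with si-NC, RBE with si-FENDRR and RBE with si-NC, so each transfection had 1 library per line and each disease is represented by 1 cell line. No separate cultures within a line are named, and all 4 cultures had received transfection reagent and an siRNA. Values are FPKM, fragments scaled to the length of the gene and to the mapped fragments of the library, so levels can be set beside each other between genes.

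Notch is a receptor that works by being cut. A ligand of the Jagged or Delta family on a neighbouring cell pulls on the receptor, a metalloprotease and then the gamma-secretase complex cleave it, and the freed intracellular domain enters the nucleus, where it joins RBPJ and a Mastermind coactivator to switch on genes of the HES and HEY repressor families. In the developing liver, JAG1 and NOTCH2 direct bipotent progenitors toward the bile duct fate, and loss of either gene causes the bile duct paucity of Alagille syndrome. Notch activity is also linked to cholangiocarcinoma, and in mouse liver forced Notch signalling can turn hepatocytes toward biliary cells.

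The libraries were alike in breadth: each had 13437 to 13682 genes that reached 1 FPKM. Every library, control transfections among them, listed FENDRR at 0, so the knockdown could not be checked and the transfections are compared by label. In cultures measured in bulk, fewer cells of a type and less RNA per cell cannot be told apart. The line labels were set against marker lists. The 10 hepatocyte markers summed to 185 and 192 FPKM in LM3 and 81.8 and 110 FPKM in RBE. Of the 8 that were tested, 5 were called higher and 2 lower in LM3, with albumin (ALB) at 35.7 and 33.3 FPKM in LM3 against 0.251 and 0.27 in RBE, but the apolipoprotein genes APOA1 and APOB were at most 0.071 and 0.343 FPKM in LM3. The markers called lower in LM3 were SERPINA1, which encodes the plasma protease inhibitor alpha-1 antitrypsin, at 0.0957 and 0.0892 FPKM against 56.8 and 82.5 FPKM in RBE, and the transthyretin gene TTR, at 0.883 and 0.81 FPKM against 6.39 and 8.41 FPKM in RBE. SERPINA1 thus made up most of the RBE sum. AFP and APOB were listed at 0 in RBE. The 10 cholangiocyte markers summed to 1470 and 1100 FPKM in LM3, most of it from SPP1, and to 1660 and 1630 FPKM in RBE. Of the 9 that were tested, 7 were called lower and 1 higher in LM3. The biliary chloride channel gene CFTR was listed at 0 in LM3 and was at most 0.023 FPKM in RBE. Leukocyte markers summed to at most 0.28 FPKM in any library. Fibroblast markers summed to 30.4 and 27 FPKM in LM3, of which LUM made up 28.4 and 24.9 FPKM. The RBE sums were 2.99 and 2.46 FPKM, with LUM and DCN listed at 0. Among the 3 tested, 2 were called higher and 1 lower in LM3. The lower gene, COL1A1, had 0.0632 and 0.013 FPKM there and supplied 2.94 and 2.45 FPKM of the RBE sums. Endothelial markers summed to 3.94 and 4.4 FPKM in LM3, mostly PECAM1 with 3.1 and 3.86 FPKM, against 0.544 and 0.493 FPKM in RBE. VWF, which was not tested, went the other way, listed at 0 in LM3 against 0.143 and 0.0857 FPKM in RBE. What part these markers' differences between the lines have in the Notch results was not tested.

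Of the 10 genes, 8 had an FPKM of at least 1 in every library. HEY1 reached that level in LM3 and in 1 of the RBE libraries, and NOTCH3 in none. In LM3, HES1 had the highest level, followed by JAG1, HES4, NOTCH2 and HEY1, each with libraries that did not overlap those of the next gene. Below them NRARP, RBPJ, NOTCH1 and JAG2 lay between 2.88 and 4.97 FPKM, and neighbours in that order overlapped. In RBE, JAG1 led, followed by HES1 and NOTCH2, and then by RBPJ and NRARP, which overlapped, NOTCH1 and HES4, which overlapped, and JAG2 and HEY1. NOTCH3 was the lowest in each line.

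**Figure D1:**
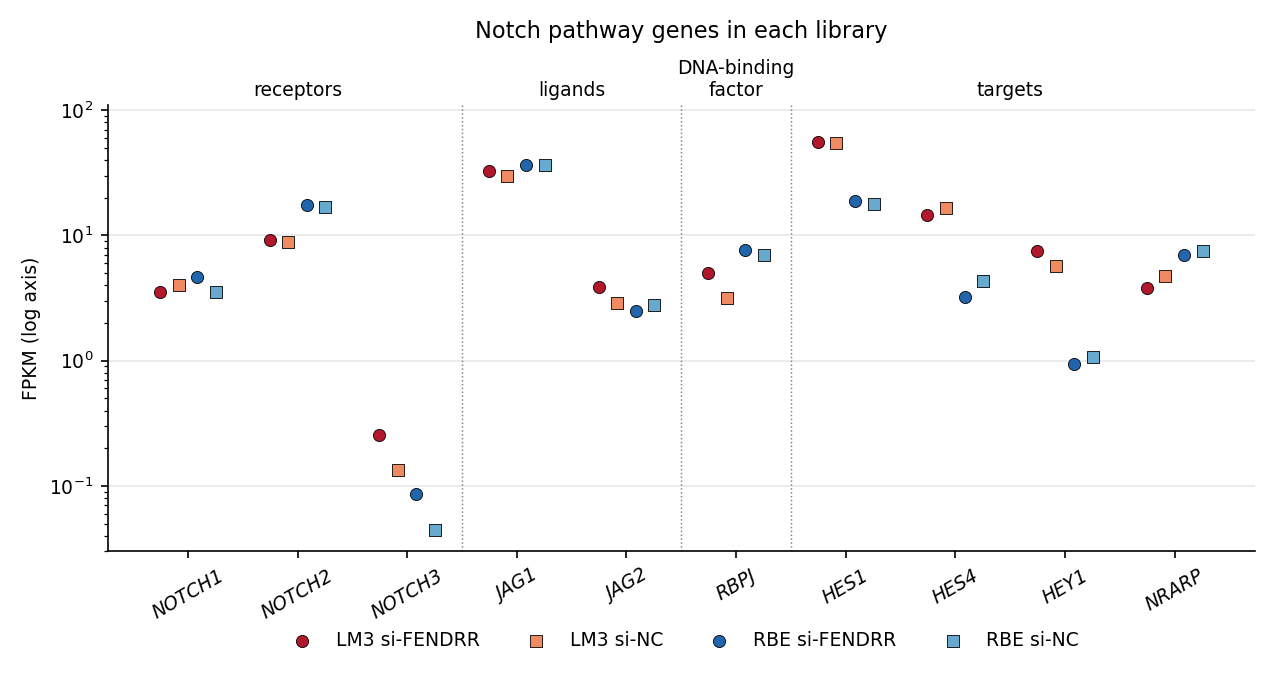
FPKM of the 10 Notch genes in each library on a log axis, grouped by role, with circles for si-FENDRR and squares for si-NC. HES1, HES4 and HEY1 sit higher in both LM3 libraries than in both RBE libraries, and NOTCH2, RBPJ and NRARP sit lower.

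Among the 4 targets, the 3 repressor genes of the HES and HEY families were higher in LM3, and the remaining target, NRARP, was lower. HES1 encodes a basic helix-loop-helix repressor that is the best known direct product of Notch signalling and that also represses its own gene (ENSG00000114315, hg38 chr3:194136145-194138732, plus strand). In LM3 it stood at 55.9 FPKM (si-FENDRR) and 55.1 FPKM (si-NC), against 18.7 and 17.9 FPKM in RBE. The lines did not overlap, and the LM3 mean was 3.03 times the RBE mean (log2 difference 1.55 ± 0.11 SE, n = 2 libraries per line, adjusted p = 0.00208 by limma). This log2 difference and those that follow are on the log2(FPKM + 1) scale, which shrinks changes of low genes, and LM3 minus RBE is positive where LM3 is higher.

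HES4, a relative of HES1 that has no mouse counterpart (ENSG00000188290, chr1:998962-1000172, minus strand), was at 14.6 and 16.4 FPKM in LM3, against 3.22 and 4.29 FPKM in RBE. The lines did not overlap, and the LM3 mean was 4.13 times that of RBE (1.80 ± 0.13 SE, adjusted p = 0.00208 by limma). HEY1, whose product pairs with HES proteins on DNA (ENSG00000164683, chr8:79764010-79767863, minus strand), was at 7.48 and 5.73 FPKM in LM3, against 0.943 and 1.07 FPKM in RBE. The lines did not overlap, and the ratio of their means was the largest of the 10 genes at 6.56 (1.91 ± 0.17 SE, adjusted p = 0.00309 by limma). The ratio of HES1 to HES4 was 3.82 and 3.37 in LM3 and 5.8 and 4.18 in RBE, and that of HES1 to HEY1 was 7.47 and 9.62 in LM3 and 19.8 and 16.7 in RBE.

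NRARP encodes a small ankyrin repeat protein that binds the complex of RBPJ and the Notch intracellular domain and dampens it (ENSG00000198435, chr9:137300482-137302251, minus strand). It went the other way from the 3 repressor genes, with 3.83 and 4.72 FPKM in LM3 against 7 and 7.57 FPKM in RBE (-0.66 ± 0.13 SE, adjusted p = 0.0174 by limma). The lines did not overlap. HES1 was at 14.6 and 11.7 times the level of NRARP in LM3, and at 2.67 and 2.37 times in RBE. All 4 targets were called between the lines, 3 higher and 1 lower in LM3. Calls were the rule between these lines, with 58.7% of the 15930 tested genes past the threshold, 32.3% higher and 26.4% lower in LM3.

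The promoter sequences of HES1, HES4 and NRARP are shown, and HEY1 had no window. HES1 and HES4 differed between the lines in the same direction and NRARP in the other. The RBPJ core motif TGGGAA was searched on both strands of the 250 bases upstream of the RefSeq start (build GRCh38.p14). Of 35116 such windows, 20.8% hold at least 1 match and 2.9% hold 2 or more. The longer form GTGGGAA, which contains the core, is in 5.43% of them. HES1 (chr3:194135898-194136147, plus strand), HES4 (chr1:1000098-1000347, minus strand) and NRARP (chr9:137302272-137302521, minus strand) are printed on the strand of the gene, 5′ to 3′, with the RBPJ core in capitals.
HES1: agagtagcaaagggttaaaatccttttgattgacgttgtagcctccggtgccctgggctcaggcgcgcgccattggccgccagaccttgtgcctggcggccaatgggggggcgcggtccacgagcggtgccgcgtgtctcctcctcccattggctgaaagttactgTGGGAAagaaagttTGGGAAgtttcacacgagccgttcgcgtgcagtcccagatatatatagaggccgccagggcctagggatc
HES4: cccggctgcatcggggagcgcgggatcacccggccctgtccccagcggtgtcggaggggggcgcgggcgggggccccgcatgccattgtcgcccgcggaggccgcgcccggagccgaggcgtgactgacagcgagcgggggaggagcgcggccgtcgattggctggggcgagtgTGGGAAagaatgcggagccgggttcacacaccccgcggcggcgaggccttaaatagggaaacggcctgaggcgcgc
NRARP: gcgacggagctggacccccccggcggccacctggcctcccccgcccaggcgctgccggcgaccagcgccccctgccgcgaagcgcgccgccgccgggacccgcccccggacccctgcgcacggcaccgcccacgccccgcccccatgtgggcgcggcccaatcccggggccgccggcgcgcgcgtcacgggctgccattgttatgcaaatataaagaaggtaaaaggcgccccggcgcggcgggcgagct

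The HES1 window holds the core on the gene strand at bases -84 to -79 and -70 to -65, counted back from the start, and the first of these is in the longer form. The HES4 window holds it at -76 to -71, also in the longer form. The listed interval of HES4 ends at chr1:1000172, inside this window. Part of the window, with most of that core, thus lies within the gene as listed. The longest run of letters that the HES1 and HES4 windows share is the 12 bases tgTGGGAAagaa, which span that core in each. The NRARP window holds no match. The N-box CACNAG, a site of HES repressors found in 32% of the windows, occurs at 3 places in HES1 and at none in HES4 or NRARP. Matches describe letters in these windows and are no evidence of binding.

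**Figure D2:**
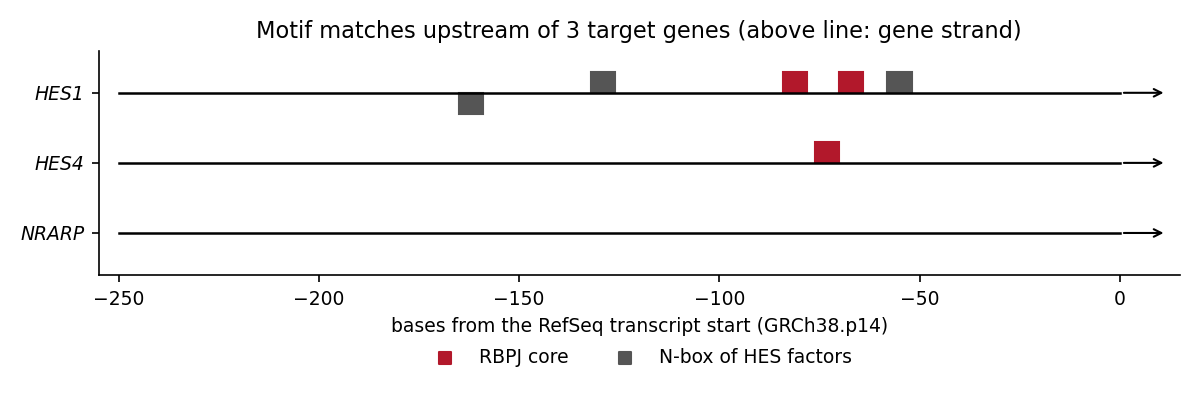
Matches to the RBPJ core (red) and the N-box (grey) in the 250 bases upstream of the RefSeq start of HES1, HES4 and NRARP, by distance from that start, with boxes above the line for the gene strand. HES1 has 2 RBPJ cores and 3 N-boxes, HES4 has 1 core, and NRARP has neither.

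Promoter windows were available for 9 of the 10 genes, all but HEY1. Those of NOTCH1, NOTCH2, NOTCH3, JAG1 and JAG2 hold no RBPJ core. RBPJ has 5 windows, and 1 of them holds the core at 2 places, both in the longer form. RBPJ was lower in LM3, so windows with the core belong to genes that differed in either direction. The windows of these receptors and ligands have 68.4% to 81.6% G and C bases, where the median of all windows is 58%.

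Among the receptors, NOTCH2 was lower in LM3 and NOTCH1 was not called. NOTCH2, the receptor of bile duct formation (ENSG00000134250, chr1:119911553-120069626, minus strand), was at 9.15 and 8.87 FPKM in LM3, against 17.4 and 17 FPKM in RBE. The lines did not overlap, and the RBE mean was 1.91 times the LM3 mean (-0.86 ± 0.12 SE, adjusted p = 0.00724 by limma), and the log2 difference was -0.86 with either transfection. NOTCH2 has a partial copy, NOTCH2NL, which arose by duplication of its first exons in the human lineage, so reads of that stretch could have been assigned to either gene. NOTCH2NL went the opposite way, with 15.3 and 18.3 FPKM in LM3 against 4.15 and 4 FPKM in RBE (1.81 ± 0.14 SE, adjusted p = 0.00243 by limma). NOTCH2NL was thus at 1.68 and 2.06 times the level of NOTCH2 in LM3 and at 0.238 and 0.236 times in RBE, and how reads were divided between the copies was not tested. NOTCH2NL also shares exon sequence with AC239799.1 on its strand.

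NOTCH1, the receptor of T cell development and a gene mutated in T cell leukaemia, was at 3.52 and 4.02 FPKM in LM3, against 4.65 and 3.56 FPKM in RBE. The lines overlapped (-0.09 with a 95% interval of -0.57 to 0.39, adjusted p = 0.667 by limma). NOTCH2 exceeded NOTCH1 in every library, 2.6 and 2.21 times in LM3 and 3.75 and 4.76 times in RBE. NOTCH3, a receptor best known from vascular smooth muscle, was at 0.254 and 0.133 FPKM in LM3, against 0.0865 and 0.0445 FPKM in RBE, and did not pass the filter of 1 FPKM. With no filter its difference between the lines was 0.16 ± 0.06 SE (adjusted p = 0.155 by limma). The fourth receptor gene, NOTCH4, stayed under 0.4 FPKM in all libraries.

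JAG1, the ligand mutated in most cases of Alagille syndrome, had the highest level of the Jagged and Delta ligand genes in each line. It was at 32.6 and 29.8 FPKM in LM3, against 36.3 and 36.4 FPKM in RBE, which did not overlap but were not called (-0.21 with a 95% interval of -0.53 to 0.10, adjusted p = 0.176 by limma). JAG2, its close relative, was at 3.89 and 2.88 FPKM in LM3, against 2.47 and 2.8 FPKM in RBE, which did not overlap and were not called (0.26 with a 95% interval of -0.23 to 0.75, adjusted p = 0.26 by limma). JAG1 was at 8.39 and 10.3 times the level of JAG2 in LM3 and at 14.7 and 13 times in RBE. JAG2 shares exon sequence on its strand with the transcript AL512356.1, which was listed at 0 with si-FENDRR and stood at 1.6 FPKM with si-NC in LM3, and was at 0.515 FPKM with si-FENDRR and listed at 0 with si-NC in RBE. JAG1 shares exon sequence with AL050403.2 on the opposite strand, which was at 0.174 FPKM in RBE with si-FENDRR and listed at 0 elsewhere. The Delta ligand genes were low, DLL1 at 0.0151 to 0.132 FPKM over all libraries, DLL3 at most 0.824 FPKM and DLL4 at 0.594 and 0.396 FPKM in RBE and listed at 0 in LM3.

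RBPJ, the DNA-binding factor on which all Notch receptors act and which recruits corepressors in the absence of a signal (ENSG00000168214, chr4:26163455-26435131, plus strand), was at 4.97 and 3.18 FPKM in LM3, against 7.62 and 7.02 FPKM in RBE. The lines did not overlap, and RBPJ was called lower in LM3 (-0.73 ± 0.16 SE, adjusted p = 0.0233 by limma). With no filter on low values the same difference had an adjusted p = 0.0595 by limma and was not called. Its processed copies RBPJP2, RBPJP5, RBPJP6 and RBPJP7 were at most 0.00744 FPKM, and the related gene RBPJL was listed at 0.

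Taking the 10 genes as a list, 9 were tested, each with an FPKM of at least 1 in some library of each line, and 6 were called between the lines, 3 in each direction. That is 66.7% of those tested, where the share over all tested genes was 58.7%. The log2 difference had a median of -0.09 for the tested Notch genes and 0.09 for all genes, and the median of its absolute size was 0.73 and 0.65. The libraries of the lines did not overlap for 8 of the 9 tested Notch genes (88.9%), nor for NOTCH3, and over all tested genes the share was 81.7%. With the filter of 1 FPKM, the shares called and not overlapping lie near those of all genes. All 6 called genes kept their direction when the si-FENDRR libraries or the si-NC libraries were compared alone. Their lines did not overlap, so this outcome was fixed and adds no support.

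**Figure D3:**
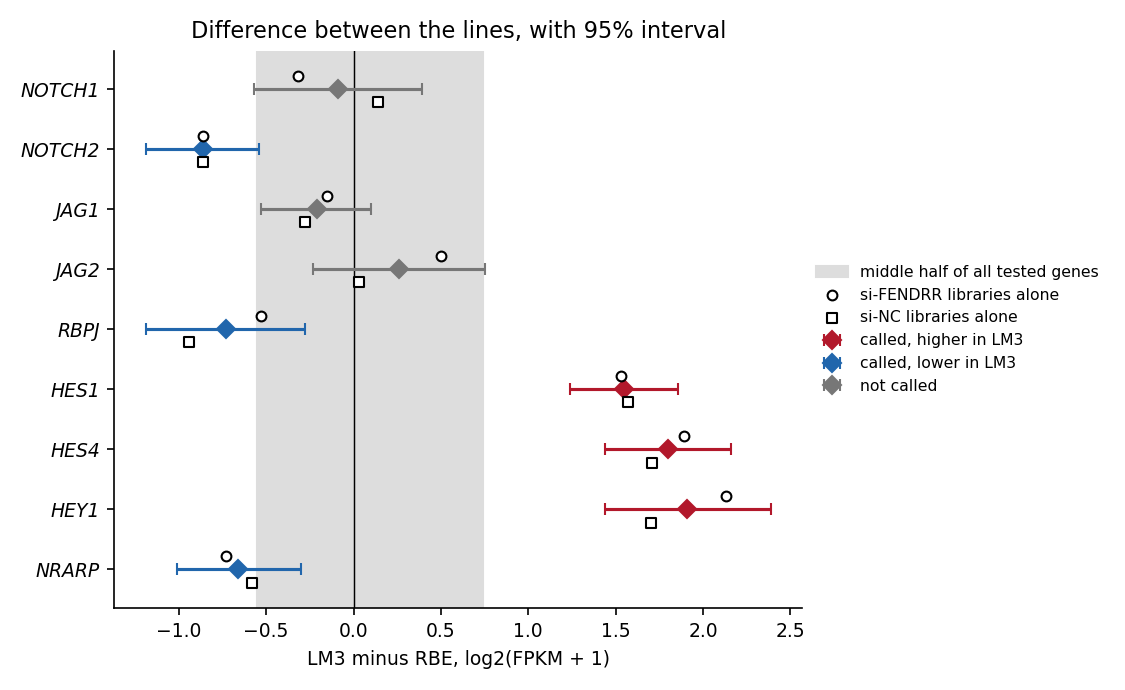
LM3 minus RBE on the log2(FPKM + 1) scale for the 9 tested genes, with diamonds and bars for the estimate and its 95% interval by limma, and open symbols for each transfection alone. HES1, HES4 and HEY1 lie at 1.55 to 1.91, NOTCH2, RBPJ and NRARP at -0.86 to -0.66, and the intervals of NOTCH1, JAG1 and JAG2 include 0. The grey band spans the 25th to the 75th percentile of all tested genes, -0.55 to 0.74.

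The wider pathway was followed in 79 other genes in 5 lists. Of the 59 that were tested, 19 were called higher and 20 lower in LM3, or 66.1% beside 58.7% over all genes, and their median on the log2 scale was 0.01. With the same filter, the wider lists too were called at a share near the background.

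Among 21 tested genes of ligand and receptor processing and trafficking, 10 were higher and 4 lower in LM3. LFNG, a Fringe glycosyltransferase that elongates sugars on the receptor and shifts its preference between Delta and Jagged ligands, was at 0.854 and 0.827 FPKM in LM3 against 16.9 and 18.1 FPKM in RBE (-3.33 ± 0.13 SE, adjusted p = 0.000853 by limma). Its relative MFNG was at 0.326 and 0.769 FPKM in LM3 against 3.34 and 3.54 FPKM in RBE (adjusted p = 0.00447). The third Fringe gene, RFNG, was at 14.2 and 15.9 FPKM in LM3 against 13.5 and 16.5 FPKM in RBE and was not called. DTX3L, a ubiquitin ligase of the Deltex family, was at 11.4 and 10.6 FPKM in LM3 against 3.26 and 3.45 FPKM in RBE (adjusted p = 0.00309). Of MIB1 and MIB2, ligases that activate ligands by promoting their uptake, both were higher in LM3, MIB1 at 6.29 and 6.91 FPKM against 2.76 and 2.66 FPKM. Values of MIB1, RFNG, APH1B, TLE1, TLE3, NOTCH4, CLDN4, the Delta genes, HES6 and the low HES and HEY genes are given outside the naming rule, chosen after their values were seen.

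All 6 genes of gamma-secretase, the protease that frees the intracellular domain, were tested, and 2 were higher and 3 lower in LM3. APH1A was at 146 and 136 FPKM in LM3 against 42.8 and 42.1 FPKM in RBE (1.71 ± 0.11 SE, adjusted p = 0.00169 by limma), and its paralog APH1B went the other way, at 2.89 and 2.52 FPKM against 3.97 and 4.86 FPKM. NCSTN, the subunit that receives substrates, was at 46.6 and 41.5 FPKM in LM3 against 65.6 and 81.4 FPKM in RBE (adjusted p = 0.0239). PSENEN was at 24.2 and 23.6 FPKM in LM3 against 14.6 and 15.6 FPKM in RBE (adjusted p = 0.0154), and shares exon sequence with AD000671.1 on its strand. On the opposite strand, exons of APH1A overlap C1orf54, those of NCSTN overlap COPA, those of DTX3L overlap PARP9 and those of NCOR1 overlap PIGL. Opposite-strand exons of U2AF1L4, AD000671.2 and AD000671.3 overlap PSENEN, those of GPS1 overlap RFNG and those of MPEG1 overlap DTX4. These partners are not a full list. With the strand setting not given, reads of such partners cannot be told apart.

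Of 24 tested genes of the nuclear complex and its corepressors, 6 were higher and 8 lower in LM3. TLE4, a Groucho corepressor that HES proteins recruit, was at 0.0961 and 0.0509 FPKM in LM3 against 15.3 and 13.9 FPKM in RBE (-3.86 ± 0.13 SE, adjusted p = 0.00075 by limma), and shares exon sequence with AL353813.1 on its strand. TLE2 was also lower in LM3, at 0.0364 and 0.0405 FPKM against 2.86 and 3.35 FPKM (adjusted p = 0.00238), while TLE1 was at 58.1 and 54.2 FPKM in LM3 against 48.1 and 43.5 FPKM in RBE and was not called. TLE3 went the other way and was called higher in LM3, at 7.93 and 7.55 FPKM against 3.55 and 3.06 FPKM in RBE (1.02 ± 0.13 SE, adjusted p = 0.00594 by limma). CDK8, a kinase that marks the Notch intracellular domain for turnover, was at 3.36 and 2.81 FPKM in LM3 against 13.2 and 10.5 FPKM in RBE (adjusted p = 0.00236).

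Of 11 other receptors and ligands, 10 did not pass the filter. EGFL7, a secreted protein that binds Notch receptors, was at 0.842 and 1.51 FPKM in LM3 against 32.1 and 33.5 FPKM in RBE (-3.97 ± 0.15 SE, adjusted p = 0.000873 by limma). Of the 7 tested among 14 other HES and HEY family members and target genes, 1 was higher and 4 lower in LM3. GATA2, a transcription factor gene of blood stem cells, was at 20.2 and 20 FPKM in LM3 against 0.0957 and 0.118 FPKM in RBE (4.25 ± 0.13 SE, adjusted p = 0.000663 by limma). SOX9, a transcription factor of bile duct cells, was at 6.59 and 7.13 FPKM in LM3 against 35.6 and 31.8 FPKM in RBE (-2.14 ± 0.13 SE, adjusted p = 0.00167), and the cell cycle inhibitor gene CDKN1A at 47.9 and 49.7 FPKM in LM3 against 219 and 218 FPKM in RBE (adjusted p = 0.00119). HES6, which counteracts HES1 in mouse neurons, was lower in LM3, at 4.04 and 5.48 FPKM against 18.4 and 11.8 FPKM in RBE. The remaining family members were low, with HES2, HES3, HES5, HEY2 and HEYL under 1 FPKM in every library and HES7 at most 1.12 FPKM.

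**Figure D4:**
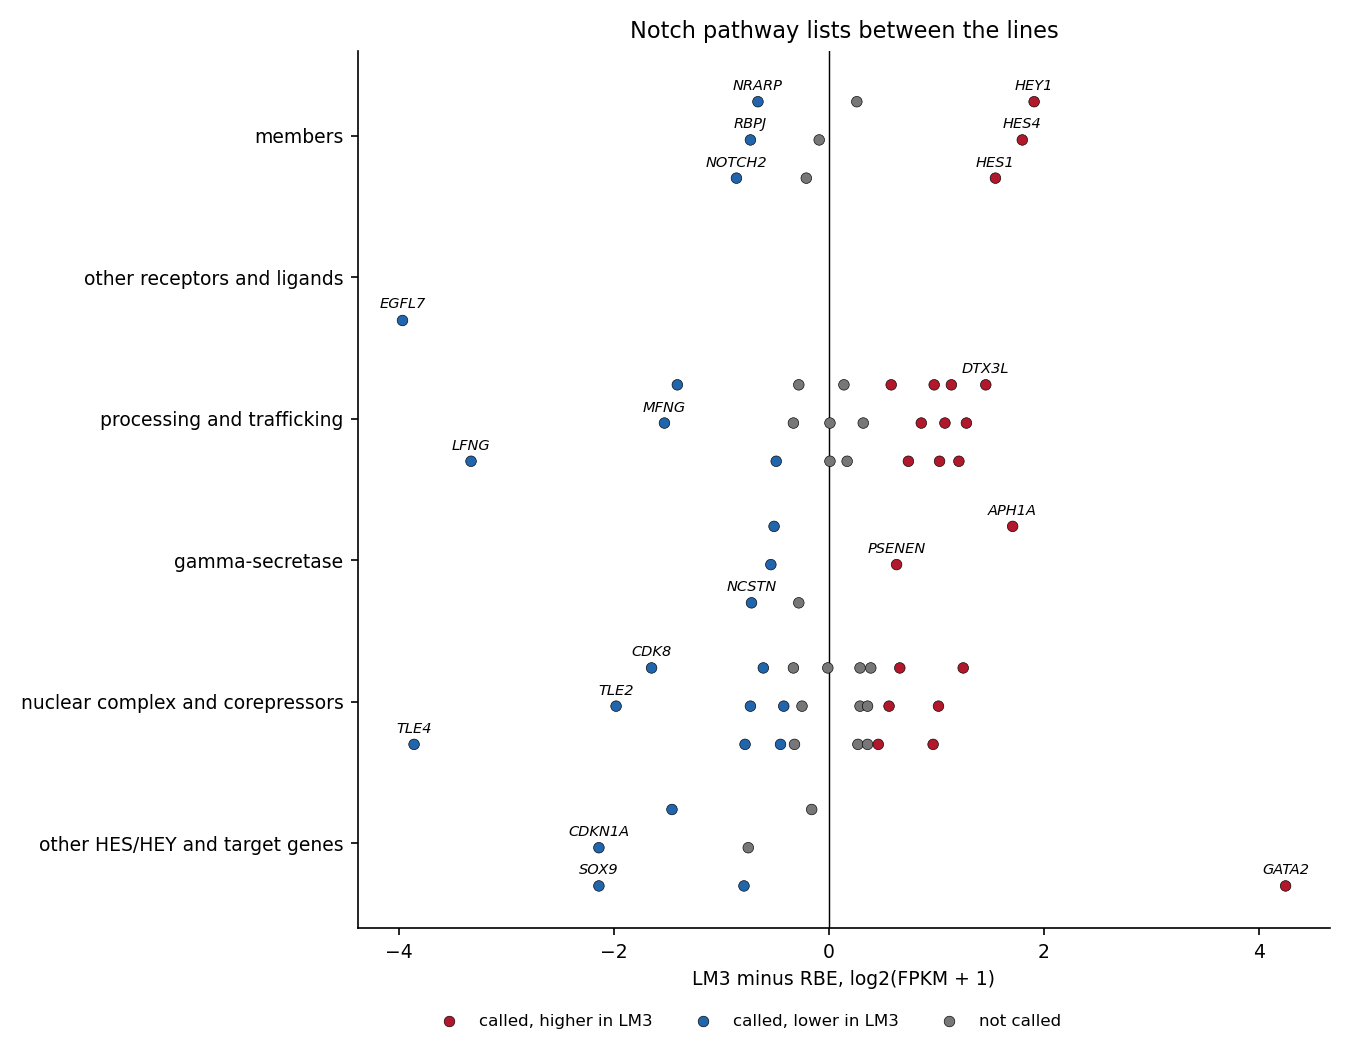
LM3 minus RBE on the log2(FPKM + 1) scale for the 9 tested Notch genes and the 59 tested genes of the wider lists, 1 point per gene, with red for genes called higher in LM3, blue for lower and grey for not called. Calls run in either direction in all but the list of other receptors and ligands, where EGFL7 alone was tested; vertical offsets within a list only separate the points.

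Over both lines, the transfections gave no call in any Notch gene. The same held for all 15930 tested genes by limma (0% called), with adjusted p-values of 0.473 or more; an unadjusted p under 0.05 was reached by 657 of them (4.12%). None of the 9 tested Notch genes was among those 657. The lines are the replicates here, so the test asks whether the mean difference over LM3 and RBE departs from 0. With 1 residual degree of freedom, the absence of calls does not show that no gene differed. The cholangiocyte marker CLDN4 was at 179 FPKM after si-FENDRR against 0.515 FPKM after si-NC in LM3 and had 50.8 against 66.7 FPKM in RBE, and its part in the Notch values was not tested.

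RBPJ had the largest difference of the tested Notch genes. It was at 4.97 FPKM after si-FENDRR against 3.18 FPKM after si-NC in LM3, and had 7.62 against 7.02 FPKM in RBE (0.31 with a 95% interval of -0.14 to 0.76, adjusted p = 0.959 by limma). On the log2 scale that is 0.51 for LM3 and 0.10 for RBE, with both lines on the same side. HES4 was the largest in the other direction, with 14.6 FPKM after si-FENDRR against 16.4 FPKM after si-NC in LM3 and with 3.22 against 4.29 FPKM in RBE (-0.24 with a 95% interval of -0.60 to 0.12, adjusted p = 0.959). NRARP was lower with si-FENDRR in each line as well, with log2 differences of -0.24 in LM3 and -0.10 in RBE, without passing the threshold. HES1 and NOTCH2 hardly differed, with log2 differences of 0.02 and 0.06 for HES1 in LM3 and RBE and 0.04 in each for NOTCH2. The 95% interval of HES1 over both lines was -0.27 to 0.34 and that of NOTCH2 -0.29 to 0.36.

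NOTCH1, JAG1, JAG2 and HEY1 had differences of opposite sign in the lines. HEY1 was at 7.48 FPKM after si-FENDRR against 5.73 FPKM after si-NC in LM3, and had 0.943 against 1.07 FPKM in RBE. JAG2 had 3.89 FPKM after si-FENDRR against 2.88 FPKM after si-NC in LM3 and 2.47 against 2.8 FPKM in RBE. The difference between the lines in their response leaves no residual degree of freedom and could not be tested. NOTCH3 was higher with si-FENDRR in each line, at 0.254 against 0.133 FPKM in LM3 and 0.0865 against 0.0445 FPKM in RBE, levels below the filter. With no filter its difference was 0.10 ± 0.06 SE (adjusted p = 0.93 by limma).

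Within a line there is 1 library per transfection and no test. No Notch gene differed at least 2-fold in FPKM + 1 in LM3 or in RBE, where 2.13% of all tested genes did in LM3 and 1.75% in RBE. The median absolute log2 difference of the 9 genes was 0.15 in LM3 and 0.10 in RBE, and that of all tested genes 0.15 and 0.14. With si-FENDRR, 3 of the 9 genes were higher in each line (33.3%) and 2 lower in each (22.2%), shares that over all genes were 26.9% and 21.8%.

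**Figure D5:**
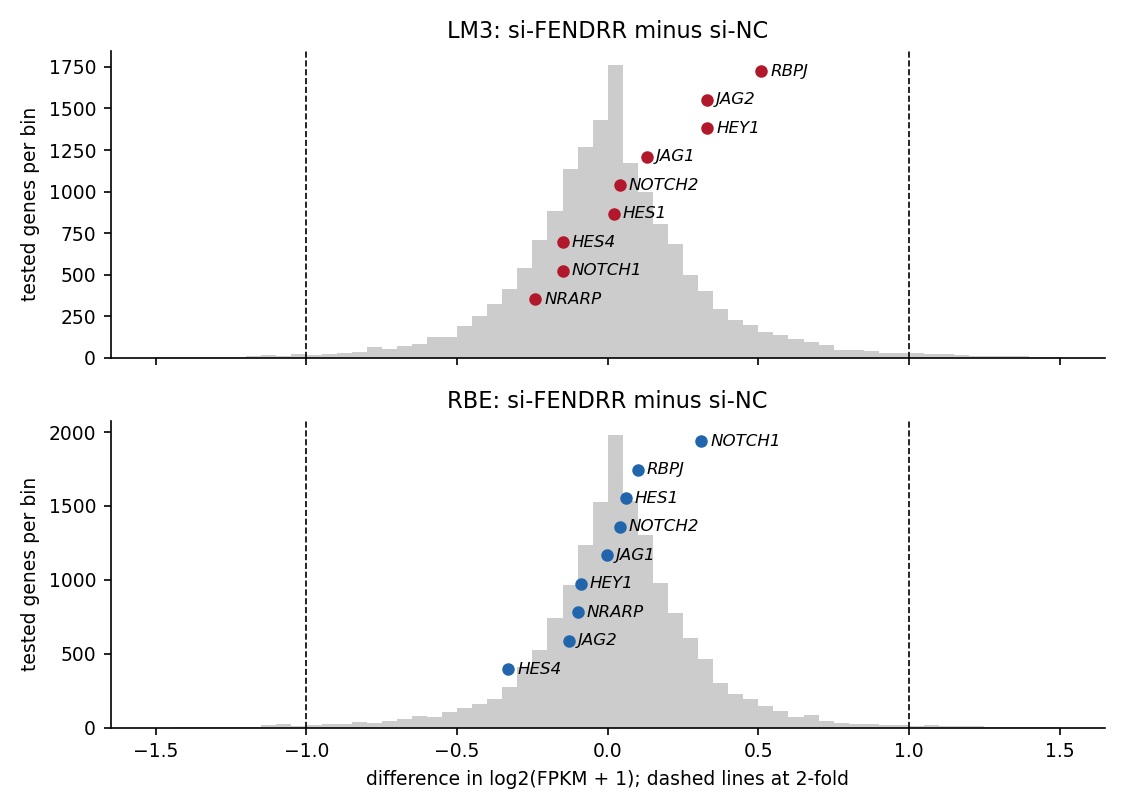
Difference between si-FENDRR and si-NC in LM3 (top) and RBE (bottom) on the log2(FPKM + 1) scale for the 9 tested Notch genes, as named points, over a histogram of all tested genes in bins of 0.05. All 9 points lie inside the dashed 2-fold lines in each line; the height of the points only separates their names, and 89 genes in LM3 and 83 in RBE lie outside the plotted range.

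Of the 59 tested genes of the wider lists, none was called between the transfections or differed at least 2-fold in either line, and 1 had an unadjusted p under 0.05. That gene was NCOR1, a corepressor that RBPJ recruits, with 37.6 FPKM after si-FENDRR against 25.7 FPKM after si-NC in LM3 and with 26.9 against 16.1 FPKM in RBE (0.62 with a 95% interval of 0.28 to 0.96, adjusted p = 0.959 by limma). CDK8 had 3.36 FPKM after si-FENDRR against 2.81 FPKM after si-NC in LM3 and 13.2 against 10.5 FPKM in RBE. The gamma-secretase gene PSEN2 had 4.07 FPKM after si-FENDRR against 5.9 FPKM after si-NC in LM3 and 6.85 against 8.07 FPKM in RBE. POGLUT1, which adds glucose to Notch, had 2.19 FPKM after si-FENDRR against 3.33 FPKM after si-NC in LM3 and 3.23 against 3.78 FPKM in RBE, the Deltex ligase gene DTX4 at 3.68 against 2.37 FPKM and 2.97 against 2.94 FPKM, and EGFL7 at 0.842 against 1.51 FPKM and 32.1 against 33.5 FPKM. None of these had an adjusted p under 0.959.

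Genes whose levels followed HES1, JAG1 or NOTCH3 most closely were found by the Euclidean distance of log2(FPKM + 1) over the 4 libraries, after each gene was centred on its mean. For HES1 they were CHMP4C, at 33.3 and 32.9 FPKM in LM3 and 10.8 and 10.4 FPKM in RBE (distance 0.0119), the pseudogene BNIP3P4 and DDX10. BNIP3P4 was at 2.52 and 2.53 FPKM in LM3 against 0.208 and 0.189 FPKM in RBE, low levels at which log2(FPKM + 1) shrinks its difference. For JAG1 the closest genes were EDC3, KIAA0100 and ATRN, with distances of 0.0136 to 0.0186. For NOTCH3 they were SEC14L2, FEM1C and FICD, with distances of 0.024 to 0.0291. NOTCH3 was at most 0.254 FPKM, where log2(FPKM + 1) shrinks differences, so its distances say little about fold changes. The NOTCH3 mean in LM3 was 2.96 times that in RBE. SEC14L2 was at 6.46 and 5.67 FPKM in LM3 against 5.5 and 5.29 FPKM in RBE. Over 4 libraries of 2 lines such likeness is common, with 58 genes within a distance of 0.1 of HES1, 135 of JAG1 and 143 of NOTCH3.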

How the data were processed

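Values were the FPKM deposited by the authors, 1 column per library, named as FPKM per the file headers; the 4 single-library files hold the same values as the joint table. Per the submitters' processing notes, FastQC and HISAT2 were used, with build hg38. Not given in the sources used here are the program behind the FPKM, its annotation, its strand setting and how it shared out reads between near copies. Among low values of single-exon genes, 11.4% to 16.6% came within 0.02 of whole multiples of the most frequent FPKM times length, so read counts were not recovered, the depth is unknown and no counting interval is given.

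The deposited FPKM were turned into log2(FPKM + 1) and fitted in limma version 3.58.1 (R version 4.3.3, trended prior variance) with terms for line and transfection, over the 15930 genes that reached 1 FPKM in some library. This leaves 1 residual degree of freedom. The p-value of a line difference rests in part on how similar that difference was under si-FENDRR and under si-NC. It also rests on the prior variance, which limma draws from all tested genes. NOTCH2 had a log2 difference of -0.86 under either transfection and still an SE of 0.12. An SE is thus not the spread of that gene alone. Adjustment was by Benjamini-Hochberg over all tested genes at 0.05. The labels name no separate cultures, so p-values describe the spread between these libraries, pooled in part over genes. The fit was tested on simulated data of the line comparison. With 200 genes changed, changes of 2-fold were missed and larger ones mostly called. With 6000 genes changed 2-fold, 5603 were called, beside 191 false calls. Changes were placed only in genes above a minimum mean level, so low genes are not covered. Exon overlaps were taken from GENCODE release 29, in which 57836 of the gene identifiers were found, and promoter sequences from RefSeq.

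The design had allowed for a count test if the files held counts, which they do not. The Notch genes and the wider lists were chosen with earlier results of these data known. All 10 Notch genes are named. Per wider list, the rule named up to 3 called genes with the largest difference between the lines and up to 2 with the largest transfection difference of the same sign in each line; a gene that the rule named is not reported here. Alternatives covered the pseudocount, scaling, filter, prior variance, model terms and fold threshold.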

Additional observations from a re-analysis of the deposited data

Results flagged for a closer look

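Transfection differences (si-FENDRR minus si-NC, log2 of FPKM + 1) ran in opposite directions in the lines for 4 of the Notch genes. NOTCH1 was at -0.15 in LM3 and 0.31 in RBE, JAG1 at 0.13 in LM3 and -0.0027 in RBE, JAG2 at 0.33 in LM3 and -0.13 in RBE, and HEY1 at 0.33 in LM3 and -0.09 in RBE. With 1 library per line and transfection these contrasts were not tested, and 47.1% of all tested genes also had opposite signs.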

How the results depend on the processing

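The count of genes called between the lines stayed within 8300 to 9643 over all alternatives. It was lowest with a filter on mean FPKM and highest with no replicate block, that is, with the transfection term left out. The number tested changed with the filter. With no filter, 8350 of 34399 genes were called, a smaller share than the 9348 of 15930 in the main fit. How near the Notch share lies to the background thus depends on the filter. Of the Notch genes, 6 were called with another pseudocount, scaling or prior variance and without the replicate block, and 5 with no filter on low values, where RBPJ had an adjusted p = 0.0595 at the same log2 difference of -0.73 (range over its alternatives 0.0169 to 0.0595) and the cause was not tested. None of the 9 tested Notch genes changed direction between the lines under another pseudocount or scaling. A pseudocount could not turn the 8 whose lines did not overlap. Leaving out the filter or the replicate block cannot alter the log2 difference of a gene in this balanced design. Those settings are thus no check of direction. The mean FPKM filter and the constant prior variance were fitted over all genes, but values of single Notch genes were not drawn from them. The RBPJ range leaves both settings out. Of all calls, 55.1% were higher in LM3, against 56.9% with scaling to library totals and 49.9% with median-of-ratios scaling, where the median log2 difference over all genes was 0.09, 0.12 and 0.01, so the tilt toward LM3 depends on the scaling. The log2 difference of HEY1 ranged from 0.95 with a pseudocount of 5 to 2.59 with a pseudocount of 0.1, and that of HES4 from 1.23 to 2.03. With 1 transfection alone, NOTCH1 was at -0.32 in the si-FENDRR libraries and 0.14 in the si-NC libraries, JAG2 at 0.50 and 0.03, RBPJ at -0.53 and -0.94, and HEY1 at 2.13 and 1.70.

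No gene was called between the transfections under any alternative. Without the line term as a replicate block, the difference between the lines enters the residual, so that setting could hardly give a call. The count of genes at least 2-fold apart depends on the pseudocount and the fold: in LM3 it was 940 with a pseudocount of 0.1, 100 with 5 and 1269 at a fold of 1.5, against 339, and in RBE 818, 83 and 999, against 279. FPKM without read counts give no depth, which limits what can be said of NOTCH3, HEY1 in RBE and the other low genes.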
